A study of Mus musculus with 6 samples.

Results

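Serpinb9, Serpinb9b, Serpinb6a, Serpinb6b and Serpinb1a are 5 mouse genes for clade B serpins, which are inhibitors of proteases that act inside the cell. They are 5 of the 54838 genes in the count table and 5 of the 27 clade B serpin genes in it, and they were chosen from these measurements, by the difference between B cells given the compound Cpd10 and B cells given its solvent. That difference is therefore described below, and no call or p-value for these genes is read as support for it. The data were RNA sequencing counts of 6 libraries from splenic B cells, 3 labelled DMSO (replicates A, B and C) and 3 labelled Cpd10 (A, B and C).

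Per the labels, naive B cells were sorted from spleens of 10 male mice aged 3 months that had been immunised with sheep red blood cells 9 days before. The mice came from 2 independent experiments and their cells were pooled, so by the labels the groups share their animals. Whether every library drew on the same pool was not tested. All cultures received IL4 at 80 ng/ml and anti-CD40 at 5 µg/ml for 5 days, which mimic what helper T cells supply. DMSO or 1 µM Cpd10, which the labels call a Foxo1 inhibitor, was present for 48 hours from day 3. Foxo1 is a forkhead transcription factor of B cells. Its transcript was at 138 ± 16.5 CPM (counts scaled to a common library size; SD, n = 3) with DMSO and at 118 ± 10.0 CPM with Cpd10, and edgeR's quasi-likelihood test gave an adjusted p of 0.711. A transcript level is no check of an inhibitor of the protein. Nothing in the labels says that the replicates were separate cultures, so p-values measure only how these libraries spread, and that spread may be technical.

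Serpins trap their target proteases by acting as bait. The protease cuts an exposed strand, the reactive centre loop, and the cut loop then inserts into the serpin's own beta sheet and carries the covalently bound protease with it, so that both molecules are used up. The loop's residues at the cleavage site set which protease is caught, which is why related serpins differ most there. Lymphocytes carry clade B serpins in cytosol and nucleus, where they meet proteases that leak from the cell's own granules or are delivered by a killer cell. Mouse Serpinb9 (also SPI-6) inhibits granzyme B, the protease with which cytotoxic lymphocytes start apoptosis in a target. Serpinb6b inhibits granzyme A, and Serpinb9b inhibits granzyme M. Serpinb6a inhibits cathepsin G and trypsin-like proteases, and Serpinb1a inhibits neutrophil elastase, proteinase 3 and cathepsin G.

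The stretch of coding sequence for the reactive centre loop is shown for each gene because it is where the 5 inhibitors differ and because it bears on whether their reads can be told apart. The sequences are from GENCODE M21 transcripts on GRCm38, 5′ to 3′ on the coding strand. Lower case marks the hinge codons at the start of the stretch and the conserved codons at its end, and capitals mark the variable bases between them.
Serpinb9: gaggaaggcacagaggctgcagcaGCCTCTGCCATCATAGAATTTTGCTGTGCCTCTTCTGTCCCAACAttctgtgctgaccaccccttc
Serpinb9b: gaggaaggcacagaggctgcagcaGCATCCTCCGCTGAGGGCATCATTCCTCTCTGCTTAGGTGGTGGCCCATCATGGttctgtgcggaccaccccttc
Serpinb6a: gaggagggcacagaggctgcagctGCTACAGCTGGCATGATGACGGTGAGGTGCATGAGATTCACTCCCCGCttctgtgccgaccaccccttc
Serpinb6b: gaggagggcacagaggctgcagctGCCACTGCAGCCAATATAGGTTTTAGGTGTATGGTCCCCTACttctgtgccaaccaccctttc
Serpinb1a: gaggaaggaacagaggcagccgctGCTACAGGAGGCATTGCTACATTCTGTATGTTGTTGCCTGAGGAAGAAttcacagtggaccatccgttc

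The lower-case ends are nearly the same in Serpinb9, Serpinb9b, Serpinb6a and Serpinb6b and differ more in Serpinb1a, and the capitals differ in length, from 42 bases in Serpinb6b to 54 in Serpinb9b. Over the whole coding sequence, Serpinb9 and Serpinb9b were identical at 85.3% of aligned positions and Serpinb6a and Serpinb6b at 81.2%, and the other 8 of the 10 pairs lay between 56.4% and 67.1%. In the capitals alone, all 10 pairs lay between 44.1% and 58.3%. There, Serpinb9 and Serpinb9b were identical at 49.1%, Serpinb6a and Serpinb6b at 54.2%, and Serpinb9 and Serpinb6b, the highest pair, at 58.3%.

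All 5 genes lie on chromosome 13 (GRCm38) in a span of 1160.7 kb that holds 41 annotated genes, 15 of them clade B serpins. Serpinb1a (ENSMUSG00000044734) is at chr13:32842092-32851185 on the minus strand. Serpinb6b (ENSMUSG00000042842) is at chr13:32965209-32979067 and Serpinb9 (ENSMUSG00000045827) at chr13:33003250-33017957, both on the plus strand. Serpinb9b (ENSMUSG00000021403) follows Serpinb9 after a gap of 9.458 kb, at chr13:33027416-33041884 on the plus strand. Serpinb6a (ENSMUSG00000060147) lies 876.033 kb further along, at chr13:33917918-34002794 on the minus strand. Serpinb1a, Serpinb6b and Serpinb9 thus lie within 175.866 kb, and Serpinb6a is far from them.

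Promoter sequences were matched in the RefSeq table for GRCm38.p6 for 4 of the 5 genes, and Serpinb1a had no entry. Those of Serpinb6b and Serpinb9, the genes with the higher level under Cpd10, and of Serpinb9b, the neighbour that was near 0, are shown from 250 bases before to 50 bases after the start site. All are on the plus strand, and capitals mark the 6-base forkhead core TAAACA on either strand. The Serpinb9 window lies wholly inside the gene as placed above, so positions in it count from the start site in the RefSeq table. The sequence before the gene start placed above was not searched for Serpinb9.
Serpinb6b, chr13:32965011-32965310: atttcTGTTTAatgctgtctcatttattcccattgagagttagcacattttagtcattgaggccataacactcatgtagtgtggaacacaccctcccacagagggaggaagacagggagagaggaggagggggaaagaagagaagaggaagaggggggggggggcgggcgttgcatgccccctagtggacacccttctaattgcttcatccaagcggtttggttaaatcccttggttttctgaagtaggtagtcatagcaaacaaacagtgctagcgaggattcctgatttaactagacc
Serpinb9, chr13:33004291-33004590: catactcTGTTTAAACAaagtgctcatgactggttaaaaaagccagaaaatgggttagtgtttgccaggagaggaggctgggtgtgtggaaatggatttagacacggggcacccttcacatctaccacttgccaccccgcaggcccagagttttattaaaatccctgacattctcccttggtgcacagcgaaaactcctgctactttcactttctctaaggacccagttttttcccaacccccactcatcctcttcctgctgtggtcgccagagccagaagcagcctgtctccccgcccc
Serpinb9b, chr13:33027164-33027463: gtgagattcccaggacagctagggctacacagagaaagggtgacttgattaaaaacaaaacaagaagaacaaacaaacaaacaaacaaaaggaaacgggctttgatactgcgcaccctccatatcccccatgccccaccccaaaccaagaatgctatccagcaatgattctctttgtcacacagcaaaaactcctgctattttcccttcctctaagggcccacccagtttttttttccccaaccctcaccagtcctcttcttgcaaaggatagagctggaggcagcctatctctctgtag

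Forkhead factors such as Foxo1 bind GTAAACA, and both strands were searched for it. None of the 5 windows held it, whereas 3.65% of the 32851 promoters in the table did. The shorter core TAAACA, which was searched after the sequences had been seen and is contained in the longer motif, was in the Serpinb6b window at -245 and in the Serpinb9 window at -239 and -243, as overlapping matches on opposite strands. It was in 13.4% of all promoters. A STAT6 motif, TTC and GAA separated by 4 bases, was in 1 Serpinb6a window at +35 and in 6.95% of all promoters. An NF-kB motif, GGGA and TTCC separated by 2 bases, was in no window and in 1.47% of all promoters. The Serpinb9 and Serpinb9b windows aligned over 215 columns with 68.8% identity, and no other pair aligned over more than 36. A match is a description of letters in this window and not of binding.

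The libraries fell into sets that cross the groups: set 1 is Cpd10 A with DMSO A and C, and set 2 is DMSO B with Cpd10 B and C. The labels name no such set, which was taken from 9 genes at 3 counts or fewer in 1 set and at 50 or more in the other.

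Serpinb6b and Serpinb9 were higher in every Cpd10 library than in any DMSO library, by 3.80-fold and 3.79-fold. Serpinb1a was 1.82-fold higher with overlapping groups, Serpinb6a hardly differed, and Serpinb9b was at or near 0 in all 6 libraries. In bulk RNA, a change in the share of cells that express a gene and a change in RNA per cell cannot be told apart.

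For Serpinb6b, the granzyme A inhibitor, replicates A, B and C were at 120, 101 and 72.7 CPM with DMSO and at 260, 369 and 486 CPM with Cpd10. The lowest Cpd10 library was 2.17 times the highest DMSO library. The means were 97.8 ± 23.8 and 372 ± 113 CPM (SD, n = 3 each), a log2 fold change of 1.93 with a standard error (SE) of 0.27. Its Cpd10 libraries spread more widely than its DMSO libraries on the linear scale.

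For Serpinb9, the granzyme B inhibitor, the DMSO libraries were at 33.9, 25.7 and 20.8 CPM and the Cpd10 libraries at 87.4, 91.3 and 126 CPM, in the same order of replicates. Here the lowest Cpd10 library was 2.58 times the highest DMSO library. The means were 26.8 ± 6.65 and 102 ± 21.4 CPM (SD, n = 3 each), a log2 fold change of 1.92 (SE 0.22). As for Serpinb6b, DMSO A was the highest DMSO library and Cpd10 C the highest Cpd10 library.

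Serpinb1a, the inhibitor of neutrophil proteases, was at 5.51, 14.7 and 8.95 CPM with DMSO (A, B, C) and at 14.1, 15.7 and 23.2 CPM with Cpd10. DMSO B stood above Cpd10 A, so the groups overlap. The means were 9.73 ± 4.66 and 17.7 ± 4.85 CPM (SD, n = 3 each), a log2 fold change of 0.86 (SE 0.37). Without DMSO B the log2 fold change was 1.29, the highest when any 1 library was left out, and without DMSO A it was 0.58, the lowest.

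Serpinb6a, the cathepsin G inhibitor, was at 8.84, 6.39 and 8.27 CPM with DMSO and at 8.13, 9.13 and 9.77 CPM with Cpd10. All 6 libraries lay within a narrow band and the groups overlap. The means were 7.83 ± 1.29 and 9.01 ± 0.825 CPM (SD, n = 3 each), a log2 fold change of 0.20 (SE 0.20).

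Serpinb9b, the granzyme M inhibitor, had 0, 1 and 8 counts in DMSO A, B and C and 0 in each Cpd10 library. It was not tested, and 8 of its 9 counts came from DMSO C. The 0 of 123793291 counts under Cpd10 allows up to 3 counts, or 0.0242 CPM, for counting error only. Its neighbour and closest relative among the 5, Serpinb9, was well expressed in libraries in which Serpinb9b had no or almost no counts.

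**Figure D1:**
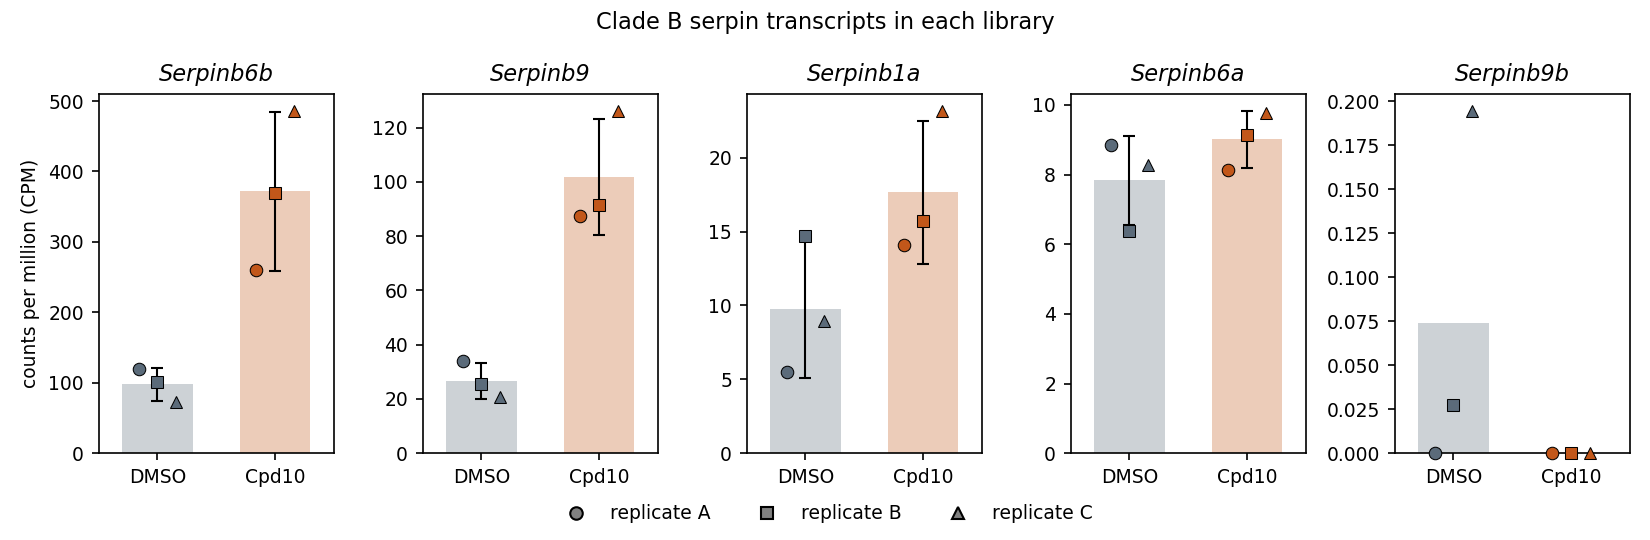
CPM of each of the 5 genes in the 6 libraries (y axis, linear, one scale per panel), with DMSO and Cpd10 on the x axis; points are libraries and bars are means ± SD (n = 3), left out for Serpinb9b. The Cpd10 points of Serpinb6b (260 to 486 CPM) and Serpinb9 (87.4 to 126 CPM) lie above all DMSO points, while those of Serpinb1a and Serpinb6a overlap them.

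In the fit over all 15136 genes tested, edgeR gave an adjusted p under 0.05 and a higher level for 48 genes (0.317%) and a lower level for 8 (0.0529%). An unadjusted p under 0.05 was reached by 1270 genes (8.39%), against which the counts at that threshold given below for gene lists can be read. DESeq2 called 205 genes higher and 151 lower of 25082 with a p, and limma-voom called 40 higher and 6 lower of 15136. Their calls in the lists below can be read against these. Of the 5 genes, 4 passed the filter on low counts, and 2 of these (Serpinb9 and Serpinb6b) were called higher and 0 lower. Every Cpd10 library stood above every DMSO library for 7.31% of the genes tested, and below for 7.32%. Since the 5 were chosen on this contrast, nothing is read from their counts. The call for Serpinb9 held in 7 of 12 other fits and that for Serpinb6b in 3 of 12, although their log2 fold changes stayed between 1.69 and 2.14. These fits reuse the libraries on which the genes were chosen, so neither the calls nor this range is support for the difference.

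Within each of the library sets named above, the Cpd10 libraries minus the DMSO libraries gave a log2 difference of 1.72 and 2.06 for Serpinb9 and of 1.48 and 2.07 for Serpinb6b. Serpinb1a differed by 1.00 and 0.37, and Serpinb6a by -0.073 and 0.56. For Serpinb9 and Serpinb6b, every Cpd10 library stood above every DMSO library, so a positive sign in each set was given beforehand. Serpinb6a had opposite signs in the sets. Cpd10 A is the only Cpd10 library of set 1, and DMSO B is the only DMSO library of set 2.

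Per kb of exon, Serpinb6b was the most abundant of the 5 genes with DMSO, at 43.2 ± 10.5 CPM per kb (SD, n = 3). Serpinb9 followed at 7.67 ± 1.90, Serpinb1a at 4.22 ± 2.02, Serpinb6a at 1.45 ± 0.238 and Serpinb9b at 0.0221 CPM per kb. Serpinb9 and Serpinb1a overlap in this order when libraries are compared across the group, and the other neighbours do not. With Cpd10 the order was the same, at 164 ± 49.98 for Serpinb6b, 29.1 ± 6.12 for Serpinb9, 7.67 ± 2.10 for Serpinb1a and 1.67 ± 0.153 CPM per kb for Serpinb6a, and no neighbours overlapped. Per kb of its longest transcript, which is shorter than its merged exons, Serpinb6a was at 3.58 CPM per kb with DMSO, where its libraries overlap those of Serpinb1a, and 4.11 with Cpd10.

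The summed level of the 5 genes was 142 ± 29.1 CPM with DMSO and 500.3 ± 138 CPM with Cpd10 (SD, n = 3 each). Serpinb6b made up 68.4% ± 2.87 of that sum with DMSO and 73.9% ± 3.10 with Cpd10, and Serpinb6b and Serpinb9 together made up 87.1% ± 3.81 and 94.6% ± 0.518. The 2 genes kept nearly the same ratio to each other. Serpinb6b was 3.54, 3.92 and 3.51 times Serpinb9 with DMSO and 2.98, 4.04 and 3.85 times with Cpd10 (A, B, C), with means of 3.65 ± 0.231 and 3.62 ± 0.567. Against its paralogue Serpinb6a, Serpinb6b went from 12.7 ± 3.57 times with DMSO to 40.8 ± 8.89 times with Cpd10.

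**Figure D2:**
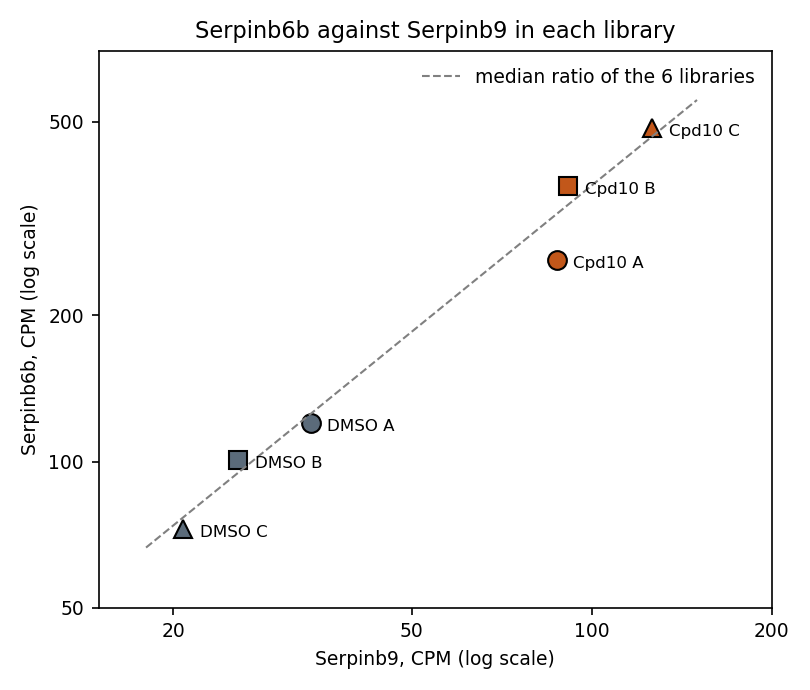
CPM of Serpinb6b (y axis) against CPM of Serpinb9 (x axis), both on log axes, with 1 point per library. The DMSO and Cpd10 libraries form separate groups along a line of nearly constant ratio, 3.65 with DMSO and 3.62 with Cpd10.

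Over the 6 libraries, the log2 CPM of Serpinb9 and Serpinb6b had a Pearson r of 0.989. Since both were chosen for a difference between the same groups, this describes the libraries and no more. Serpinb1a had an r of 0.671 with Serpinb9 and 0.707 with Serpinb6b, Serpinb6a had 0.622 and 0.620, and Serpinb6a with Serpinb1a had 0.071. Among 8648 genes at 10 CPM or more, the 3 most like Serpinb9 were Timd2 (0.998), Eef1akmt2 (0.993) and Ppp2r2a (0.992), and those most like Serpinb6b were Phf13 (0.995), Ppp2r2a (0.993) and Ezh2 (0.990). Timd2, a receptor of the TIM family that B cells carry, was at 174 CPM with DMSO and 533 CPM with Cpd10, close to the size of the difference in Serpinb9. Ppp2r2a, a regulatory subunit of protein phosphatase 2A, was at 92.8 and 102.9 CPM, the same pattern at a much smaller size. Ezh2, the histone methyltransferase of Polycomb repressive complex 2, was at 295 and 477 CPM. For Serpinb6a the most like were Mark4 (0.978), Vps26c (0.964) and Stradb (0.964), and for Serpinb1a Armc9 (0.994), Triap1 (0.993) and Glipr2 (0.989). Per the labels, all libraries came from pooled cells, and likeness over 6 points says nothing of shared function.

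Reads of related genes can be miscounted, and the sequences bear on this. Of the 50-base words in the transcript taken to represent Serpinb9, 0.380% also occurred in another gene, namely Serpinb9b. The shares were 3.13% for Serpinb6b and 3.42% for Serpinb1a, and at 100 bases no word of Serpinb9, Serpinb6b or Serpinb1a was shared. Serpinb6a shared 20.7% of its 50-base words, mostly with 1110046J04Rik on the opposite strand, and overlaps Ripk1 by 432 bases and Nqo2 by 23757 bases, also on the opposite strand. Serpinb9b shared 5.62%, mostly with its antisense gene Gm36099. The sources used here do not give the strand setting of the counting, so Serpinb6a and Serpinb9b are uncertain, and no annotated gene overlaps Serpinb9, Serpinb6b or Serpinb1a.

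The other 22 clade B serpins were mostly silent: 16 of them had no count in any library and 2 were tested, of which edgeR called 0 and limma-voom 0. At an unadjusted p under 0.05 there was 1, and DESeq2 called 1 higher, Serpinb1c in both cases. Their median log2 fold change was 2.71 over these 2 genes, beside -0.0012 over all genes tested. Serpinb1c, a paralogue of Serpinb1a that is named here after its values were seen, had 0, 1 and 2 counts with DMSO (A, B, C) and 29, 24 and 22 with Cpd10. Every Cpd10 library was above every DMSO library, at a mean of 0.611 against 0.0254 CPM. The ratio of summed counts, scaled for depth, was 24.9 (exact 95% interval 8.21 to 124, for counting error only). The log2 fold change was 4.46 (SE 0.93), with adjusted p-values of 0.130 in edgeR, 0.0112 in DESeq2 and 0.139 in limma-voom. Serpinb1c passed the filter on low counts only through its Cpd10 libraries and was picked for its values. Nothing is therefore read from its interval or p-values, or from the median that includes it. Serpinb1b, another paralogue of Serpinb1a, was at 1.03, 0.771 and 0.487 CPM with DMSO and 0.176, 1.90 and 2.40 CPM with Cpd10, and its groups overlap (log2 fold change 0.96, SE 0.83, edgeR adjusted p = 0.851; -0.12 with the library set as a term). The 12 clade B serpins outside the span had no member at a mean of 1 CPM, and 10 of them were at 0 in all libraries.

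The region around the serpins was examined next. Of 83 other genes in the span or within 1 Mb of it, 47 were at 0 and 19 were tested. edgeR and limma-voom called 0 of the 19, and 4 had an unadjusted p under 0.05. DESeq2 called Serpinb1c higher and Gm6093 lower. Gm47662, a lincRNA gene between Serpinb6b and Serpinb9 that is named here after its values were seen, was at 0.269, 0.440 and 0.0973 CPM with DMSO and 0.837, 0.812 and 1.60 CPM with Cpd10. Every Cpd10 library was above every DMSO library (log2 fold change 2.00, SE 0.68, edgeR adjusted p = 0.456). The median log2 fold change of the 19 was -0.084, and without the clade B serpins it was -0.096 over 17 genes. Gmds and Wrnip1, to the left of Serpinb1a, had log2 fold changes of 0.016 and 0.093. Nqo2 and Ripk1, to the right and overlapping Serpinb6a, had -0.78 and -0.20. Tubb2b, a beta tubulin gene, was at 19.3 ± 3.10 CPM with DMSO and 29.9 ± 3.64 CPM with Cpd10 (log2 fold change 0.63, SE 0.16, edgeR adjusted p = 0.248). Gm6093, a lincRNA gene between Serpinb9b and Serpinb6a, was at 6.10 ± 2.39 and 0.936 ± 0.698 CPM (-2.71, SE 0.76, edgeR adjusted p = 0.325).

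**Figure D3:**
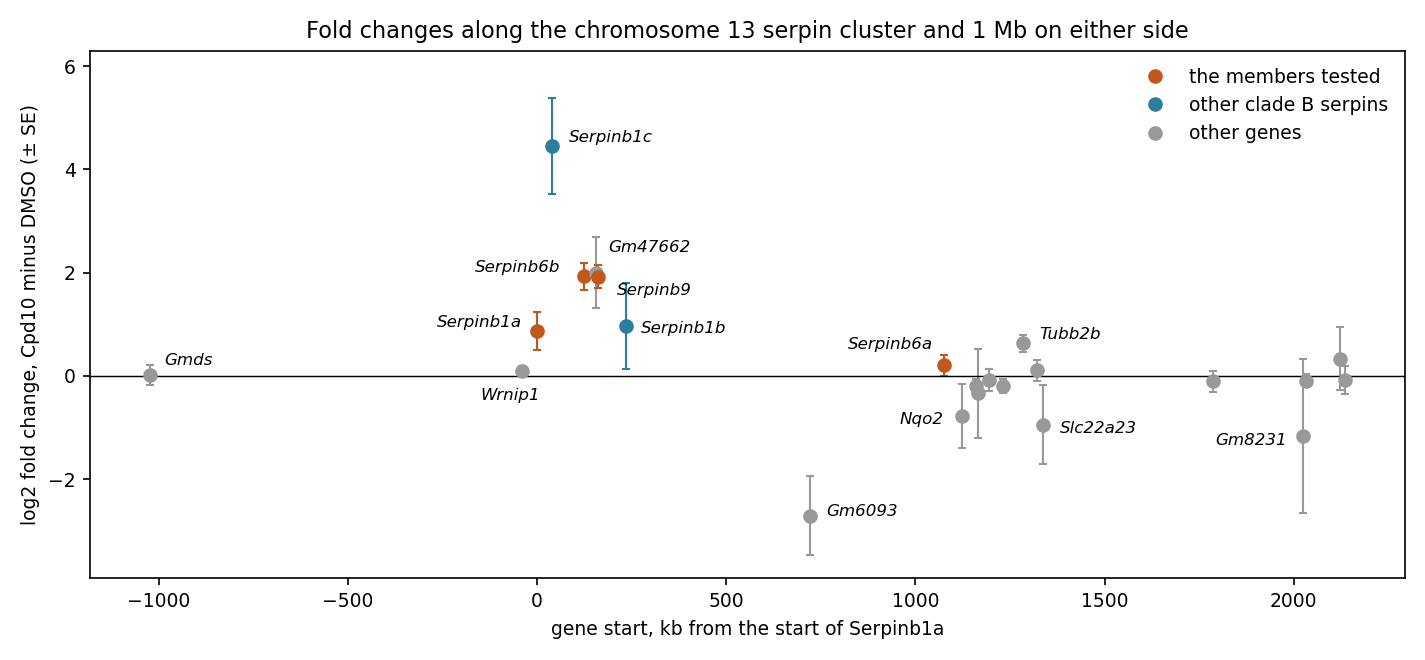
Log2 fold change, Cpd10 minus DMSO, with its SE (y axis) of each tested gene on chromosome 13 against the distance of its start from the start of Serpinb1a in kb (x axis). Serpinb6b (1.93) and Serpinb9 (1.92) stand above Serpinb1a (0.86) and the distant Serpinb6a (0.20). Serpinb1c is at 4.46, Gm47662 at 2.00 and Gm6093 at -2.71, and the median of the 19 other genes is -0.084.

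The proteases that these serpins inhibit were examined as lists. Of 13 granzyme and granule genes, 12 were in the table, 3 were at 0 in all libraries and 6 were tested. edgeR, DESeq2 and limma-voom each called 0 of them, none had an unadjusted p under 0.05, and the median log2 fold change was -0.094. Gzmb, the target of Serpinb9, was at 2.62, 0 and 7.20 CPM with DMSO (A, B, C) and 6.34, 0.101 and 0.106 CPM with Cpd10. Gzma, the target of Serpinb6b and named for that reason with its values known, was at 0.985, 0 and 3.26 CPM with DMSO and 3.79, 0 and 0.426 CPM with Cpd10. Both granzymes were highest in the libraries of set 1 (DMSO A, DMSO C and Cpd10 A). Serpinb9 and Serpinb6b were chosen for a difference between the groups, so nothing is read from their different pattern. Prf1, which encodes the pore-forming perforin, was at 7.70, 3.47 and 9.34 CPM with DMSO and 6.06, 1.98 and 2.40 CPM with Cpd10. Srgn, the granule proteoglycan serglycin, was at 602 ± 117 and 573 ± 58.1 CPM (edgeR adjusted p = 0.9502).

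Targets of Serpinb1a and Serpinb6a among neutrophil and mast cell serine proteases were nearly absent. Of 9 genes, 5 were at 0 in all libraries and 1 (Cma1, mast cell chymase) was tested, with a log2 fold change of 0.79 and an edgeR adjusted p of 0.847; no tool called it, and its unadjusted p was not under 0.05.

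A list of 16 lysosomal genes held cathepsins, legumain (Lgmn) and the cystatins Cstb and Cst3, which inhibit cathepsins, and all 16 were tested. edgeR and limma-voom called 0, 3 passed at an unadjusted p under 0.05, and DESeq2 called 1, Lgmn, lower. Their median log2 fold change was -0.13. Lgmn, the asparaginyl endopeptidase legumain, was at 256 ± 35.4 CPM with DMSO and 128 ± 27.3 CPM with Cpd10 (log2 fold change -0.996, SE 0.18, adjusted p = 0.0859 in edgeR and 6.95e-05 in DESeq2). Ctsc, which activates the granzymes by removing their propeptide, had 0.45 (edgeR adjusted p = 0.376), and Ctsa had -0.30 (edgeR adjusted p = 0.510).

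Among 23 granzyme substrates and caspases, 22 were tested. edgeR and limma-voom called 0 and 5 had an unadjusted p under 0.05, while DESeq2 called Dffa higher and Casp1 and Casp4 lower. The median log2 fold change was 0.055. Casp1, the inflammasome caspase, was at 70.8 ± 8.83 CPM with DMSO and 40.0 ± 4.93 CPM with Cpd10 (-0.82, SE 0.14, adjusted p = 0.0753 in edgeR and 4.14e-04 in DESeq2). Dffa, the inhibitor of the apoptotic DNase, was at 67.9 ± 3.39 and 98.5 ± 7.38 CPM (0.54, SE 0.097, adjusted p = 0.0929 in edgeR and 0.0144 in DESeq2). Casp4 was at 83.3 ± 26.4 and 47.6 ± 1.67 CPM (-0.81, SE 0.21, adjusted p = 0.254 in edgeR and 0.0176 in DESeq2).

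CD40 signals through NF-kB in B cells, and a list of 20 genes for components of this pathway and for survival factors was tested. edgeR and limma-voom called 0, 2 passed at an unadjusted p under 0.05, and DESeq2 called Birc2 higher. The median log2 fold change was -0.019. Birc2, an inhibitor of apoptosis that acts in NF-kB signalling, was at 356 ± 125 and 781 ± 202 CPM (1.13, SE 0.29, adjusted p = 0.272 in edgeR and 0.00113 in DESeq2). Nfkbia, which encodes the NF-kB inhibitor IkB alpha, had -0.51 and Cflar, an inhibitor of caspase 8, had -0.37 (edgeR adjusted p = 0.392 and 0.628).

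Serpins of other clades served as relatives outside clade B. Of 36, 18 were at 0 and 9 were tested. edgeR and limma-voom called 0, 2 passed at an unadjusted p under 0.05, and DESeq2 called Serpina3n higher. The median log2 fold change was 0.0069, and that of the 4 tested among the 5 genes described here was 1.39, a value that their choice sets. Serpina3n, a secreted serpin that also inhibits granzyme B, was at 0.112, 0.661 and 0.146 CPM with DMSO (A, B, C) and at 7.03, 175 and 164 CPM with Cpd10. Every Cpd10 library was above every DMSO library, but Cpd10 A was far below the other Cpd10 libraries (log2 fold change 8.61, SE 1.65, adjusted p = 0.179 in edgeR, 1.90e-08 in DESeq2 and 0.0105 in edgeR without Cpd10 A). The last fit leaves out the library that differed, and no other fit with 1 library left out called a gene of this list higher. Serpina3n passed the filter on low counts through its Cpd10 libraries, so nothing is read from these p-values. Serpina3g, an intracellular inhibitor of cathepsins, was at 122 ± 48.6 and 175 ± 32.5 CPM (0.51, edgeR adjusted p = 0.753). Serpinf1 had -0.76 (edgeR adjusted p = 0.772).

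Marker genes of cells that also carry these serpins or their targets were summed in each library. The 8 B cell markers were present in all libraries, at 5387 to 5707 CPM with DMSO and 4611 to 5940 CPM with Cpd10. T cell markers were at 9.25 to 24.9 and 7.71 to 14.4 CPM, with 8 of 9 under 1 CPM. Their sum was mostly Cd28 (mean 11.7 CPM), so it is no measure of T cells as a whole. NK cell markers, Gzma among them, were at 2.26 to 5.72 and 0.533 to 4.10 CPM, with Ncr1 at 0. Cytotoxic cells of these types can hold Serpinb9 themselves. Both the T cell and the NK cell sum were highest in DMSO C. Cpd10 A (14.4 and 4.10 CPM) was above DMSO A (13.1 and 2.78 CPM) and DMSO B (9.25 and 2.26 CPM). Cpd10 B (7.71 and 0.533 CPM) and Cpd10 C (8.68 and 0.692 CPM) were below every DMSO library. Neutrophil markers were at 0.0896 to 1.02 and 0 to 0.463 CPM, with Elane, Retnlg, S100a8 and S100a9 at 0. Mast cell and basophil markers were at 0.0551 to 3.40 and 0.355 to 10.2 CPM, with Fcer1a, Mcpt8 and Prss34 at 0. Macrophage markers (14.3 to 22.9 and 9.78 to 15.4 CPM) had C1qa and C1qb at 0, and dendritic cell markers (70.7 to 103 and 60.7 to 88.6 CPM) had Clec9a at 0. Of the macrophage markers, 7 of 8 were under 1 CPM, and their sum was mostly Adgre1 (mean 15.2 CPM). Fibroblast and endothelial markers were at 11.3 to 20.5 and 4.93 to 6.14 CPM, with Dcn and Col3a1 at 0. Their sum was lower in each Cpd10 library than in any DMSO library. It was mostly Pecam1 (mean 9.16 CPM), and 6 of the 7 markers were under 1 CPM, so it is no measure of these cells as a whole. Plasma cell genes were at 2018 to 4361 and 2155 to 3087 CPM. The part of these other cells in the levels of the 5 serpins was not tested.

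Libraries held 36873204 to 44859930 counts, so Serpinb9 rested on at least 853 counts in each library and Serpinb6b on at least 2990, while Serpinb6a had 232 to 395 and Serpinb1a 246 to 871. For these genes the spread between libraries, not counting, sets the precision.

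**Figure D4:**
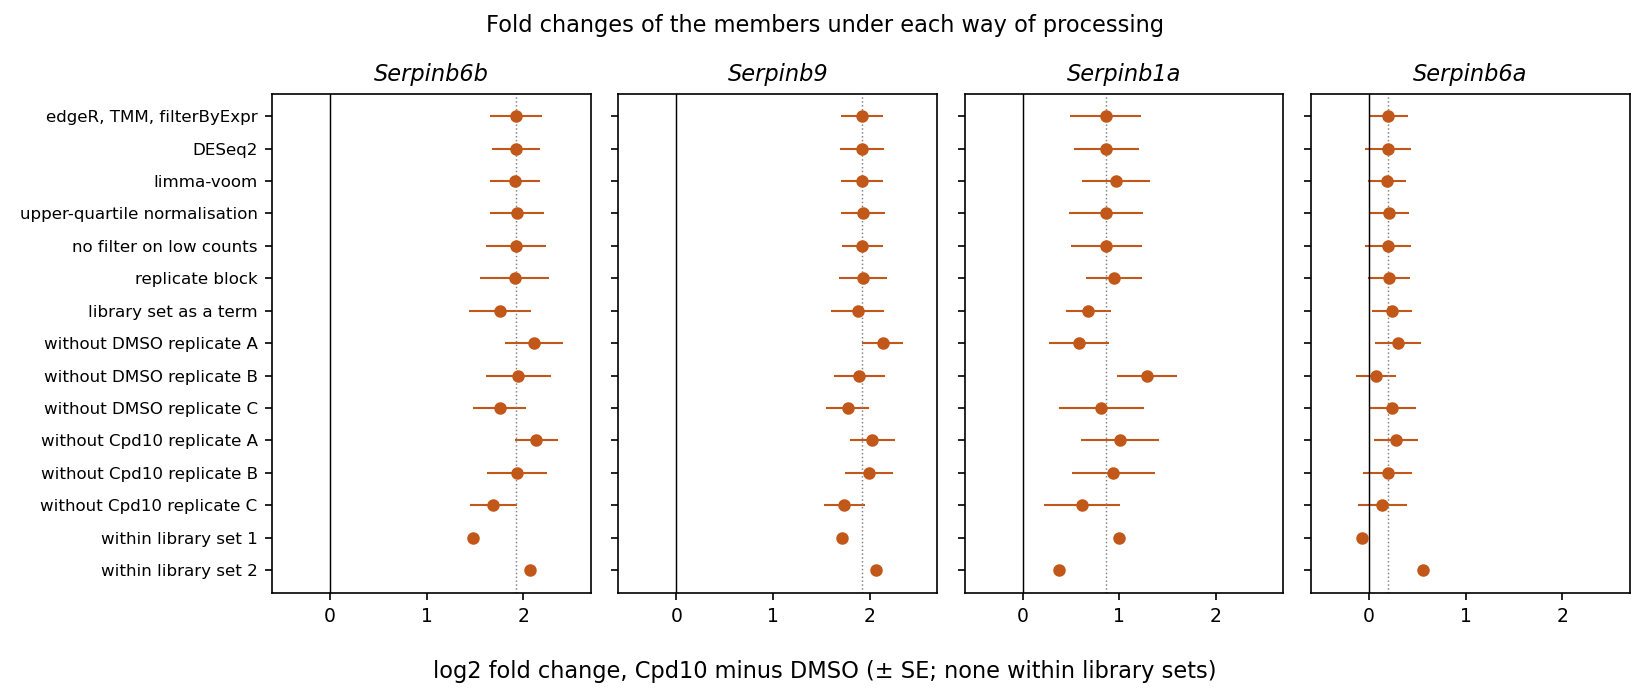
Log2 fold change, Cpd10 minus DMSO (x axis), of the 4 tested genes under each way of processing (y axis); points are estimates, bars are SE, and the dotted line is the value reported. Over all points, Serpinb6b runs from 1.48 to 2.14, Serpinb9 from 1.72 to 2.14, Serpinb1a from 0.37 to 1.29 and Serpinb6a from -0.073 to 0.56, with each lowest value within a library set.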

How the data were processed

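The authors deposited raw counts, whole reads per gene, for all 6 libraries. Per the submitters' processing notes, STAR 2.7.10a, featureCounts 2.0.6, DESeq2 and the build mm10 (GRCm38) were used; the sources used here do not give the strand setting. Of 54838 gene identifiers, 54809 were found in GENCODE M21 and 29 were not. Counts were fitted in R 4.3.3 with edgeR 4.0.16 (TMM, filterByExpr, robust quasi-likelihood, group as the only term), with Benjamini-Hochberg adjustment over 15136 genes and a threshold of 0.05. CPM used normalised library sizes, and an SE is the log2 fold change over the root of F. DESeq2 1.42.0 and voom in limma 3.58.1 were among the alternatives. The fit was also run on simulated counts with known fold changes. These held no library sets, so they do not test the fit for libraries such as these.

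The genes and lists were chosen with earlier results of these data known. The naming rule takes the 5 genes, other clade B serpins at a mean of 1 CPM or more, up to 3 further genes with the smallest p per list, flanking genes and the 3 genes at 10 CPM or more with the highest r (log2 CPM, prior count 2). Replicates of a group differed beyond counting noise (chi-square per degree of freedom 11.5 to 157), so none was a duplicate. Depth is given with the results.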

Additional observations from a re-analysis of the deposited data

How the results depend on the processing

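The number of genes called by edgeR (56 in all) was 46 with limma-voom and 50 with upper-quartile normalisation. It was 356 with DESeq2, which gave a p for 25082 genes, and 194 of 25099 with no filter on low counts (124 higher, 70 lower). With the library set as a term, a term chosen after seeing the data, it was 599 of 15136 (351 higher, 248 lower). Leaving out 1 library gave 0 (without Cpd10 C, with 843 at an unadjusted p under 0.05) to 100 (without DMSO B). With the replicate letter as a replicate block the count was 49, and the adjusted p was 0.0713 for Serpinb9 (log2 fold change 1.93) and 0.244 for Serpinb6b (1.91). Deviations of same-letter libraries from their group means correlated at 0.309 (A), 0.432 (B) and -0.315 (C). Not every library correlated best with its own letter. The signs go with the library sets, which hold both A libraries together and both B libraries together but split the C libraries. Whether the letters pair the libraries can therefore not be told from these values.

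Of 56 values of the 4 tested genes under alternatives, 53 stayed within the spread between libraries. The other 3 were within library sets: 1.48 in set 1 for Serpinb6b, and -0.073 in set 1 and 0.56 in set 2 for Serpinb6a. Leaving out 1 library gave log2 fold changes of 1.74 to 2.14 for Serpinb9, 1.69 to 2.14 for Serpinb6b, 0.58 to 1.29 for Serpinb1a and 0.074 to 0.30 for Serpinb6a. The adjusted p of Serpinb6b was 0.0574 with upper-quartile normalisation, 0.127 with no filter and 0.103 with the set term.

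List counts, all 0 in the main fit, moved as follows, to be read against the counts over all genes given above. DESeq2 gave 1 higher among other clade B serpins, serpins of other clades, caspases and granzyme substrates, NF-kB genes and neighbours, and 1 lower among the cathepsin list and neighbours and 2 lower among caspases and substrates. With no filter there was 1 lower among the cathepsin list and 1 higher and 1 lower among caspases and substrates. The set term gave 1 higher among other clade B serpins and NF-kB genes, 2 higher among serpins of other clades and neighbours, 3 lower among the cathepsin list, and 3 higher and 1 lower among caspases and substrates. Leaving out 1 library gave 0 to 2 higher among serpins of other clades (without Cpd10 A for the most) and 0 to 1 higher among the cathepsin list. Of 372 values of other named genes under alternatives, 6 changed sign, all in genes that edgeR did not call. With the set term, Gzmb (-0.58) was 0.65 and Serpinb1b (0.96) was -0.12. Leaving out 1 library gave -4.93 to 0.73 for Gzmb (positive without DMSO C), -0.15 to 0.11 for Srgn (-0.070; positive without DMSO A, and 0.012 without Cpd10 A) and -0.012 (without DMSO B) to 0.10 for Vps26c (0.048). The causes were not tested. Depth limits Serpinb9b and Serpinb1c, and the spread between libraries limits the rest.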
